A study of Mus musculus with 4 samples.

Results

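The genes described here are a set of 10 that encode junction and surface proteins of endothelium: Pecam1, Cdh5, Emcn, Plvap, Esam, Cldn5, Eng, Icam2, Egfl7 and Ramp2. They were chosen by symbol and are 10 of the 32285 genes in the count matrices. The study used C57BL/6J mouse embryos at stage E11.5, from whose aorta-gonad-mesonephros (AGM) region CD31+ cells were sorted. CD31 is the protein made from Pecam1, so the sort itself selected on 1 of the 10 genes. The dye TMRM, which mitochondria take up according to their membrane potential, separated cells of low signal (MMPlow) from cells of high signal (MMPhigh). There are 2 libraries of single cells per fraction, prepared with the 10x Genomics 3' v3 kit, and no other genotype, treatment or age was used. The labels do not say whether the 2 libraries of a fraction came from separate embryos or pools, so each p-value below measures only the spread between these libraries.

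Endothelial cells line blood vessels and hold to each other through adherens junctions, built on the cadherin encoded by Cdh5, and tight junctions, to which the claudin encoded by Cldn5 belongs. Pecam1, Esam and Icam2 encode adhesion proteins of the immunoglobulin superfamily, and blood cells such as platelets and leukocytes are known to carry some of them. Emcn encodes a sialomucin of the endothelial surface and Plvap a protein of the diaphragms that close endothelial fenestrae and caveolae. Eng encodes endoglin, a co-receptor for ligands of the BMP9 and TGF-beta family. Ramp2 encodes the partner that turns the receptor encoded by Calcrl into a receptor for adrenomedullin, and Egfl7 encodes a protein that endothelial cells secrete into their matrix. In the AGM, haematopoietic cells arise from the endothelium itself, and young blood cells are known to carry some endothelial surface proteins.

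Upstream sequence was on hand for 4 of the 10 genes (Cldn5, Emcn, Eng and Egfl7), as RefSeq promoter windows of build GRCm38.p6, and it is shown as the regulatory sequence of genes whose levels are compared across cell classes below. Each window is the 250 bases before a start annotated by RefSeq, on the plus strand, and capitals mark the core AGGAAG, or its reverse complement CTTCCT, that is recognised by ETS factors. The windows are chr16:18776597-18776846 for Cldn5, chr3:137340828-137341077 for Emcn, chr2:32646345-32646594 for Eng and chr2:26583615-26583864 for Egfl7, and the last lies inside the gene, before 1 of its 3 annotated starts. By the GENCODE vM21 annotation the Emcn window also runs 11 bases into the gene.
Cldn5: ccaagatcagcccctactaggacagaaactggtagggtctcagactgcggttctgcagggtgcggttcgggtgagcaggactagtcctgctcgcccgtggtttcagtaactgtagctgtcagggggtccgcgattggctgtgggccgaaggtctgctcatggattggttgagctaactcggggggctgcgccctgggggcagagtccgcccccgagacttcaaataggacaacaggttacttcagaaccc
Emcn: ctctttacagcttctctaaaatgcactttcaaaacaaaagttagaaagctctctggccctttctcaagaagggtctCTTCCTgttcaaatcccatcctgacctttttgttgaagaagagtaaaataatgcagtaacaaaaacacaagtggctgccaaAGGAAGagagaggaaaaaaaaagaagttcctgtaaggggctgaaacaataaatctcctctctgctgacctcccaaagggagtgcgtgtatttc
Eng: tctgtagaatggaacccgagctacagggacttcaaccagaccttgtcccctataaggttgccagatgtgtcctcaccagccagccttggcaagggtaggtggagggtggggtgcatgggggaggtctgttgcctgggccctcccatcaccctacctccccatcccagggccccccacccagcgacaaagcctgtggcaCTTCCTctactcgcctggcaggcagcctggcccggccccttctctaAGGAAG
Egfl7: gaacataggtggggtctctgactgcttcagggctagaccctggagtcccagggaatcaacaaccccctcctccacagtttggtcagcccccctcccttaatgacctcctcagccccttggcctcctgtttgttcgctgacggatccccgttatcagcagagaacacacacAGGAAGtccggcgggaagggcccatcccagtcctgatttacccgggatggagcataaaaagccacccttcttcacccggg
The Cldn5 window held 0 of these cores, the Emcn and Eng windows held 2 each, and the Egfl7 window held 1. The windows before the other Egfl7 starts held 3 and 0. The core was found on either strand in 29.5% of all 32851 windows of this length. A GATA core (AGATAA, in 9.99% of windows) and a RUNX core (TGTGGT, in 14.0%), both searched on both strands, were in none of the 6 windows of these 4 genes. Each factor was searched by 1 exact spelling, so sites spelled otherwise are not covered. Such matches describe the letters alone.

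The 10 genes lie on 6 chromosomes of GRCm38 by the GENCODE vM21 annotation. Pecam1 (ENSMUSG00000020717) is on chromosome 11, 106654217 to 106750628, minus strand, and Icam2 (ENSMUSG00000001029) is 266 kb away at 106377656 to 106388075 on the same strand. Ramp2 (ENSMUSG00000001240) is on chromosome 11, 101246028 to 101259546, plus strand. Cdh5 (ENSMUSG00000031871) is on chromosome 8, 104101625 to 104144511, plus strand, and Plvap (ENSMUSG00000034845) is on chromosome 8, 71497765 to 71511752, minus strand. Eng (ENSMUSG00000026814) is on chromosome 2, 32646595 to 32682669, plus strand, and Egfl7 (ENSMUSG00000026921) is on chromosome 2, 26580014 to 26593120, plus strand. Emcn (ENSMUSG00000054690) is on chromosome 3, 137341067 to 137432185, plus strand, Esam (ENSMUSG00000001946) on chromosome 9, 37528078 to 37538319, plus strand, and Cldn5 (ENSMUSG00000041378) on chromosome 16, 18776847 to 18778262, plus strand.

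The libraries differed widely in depth and make-up. They held 51800709 to 120168395 UMIs (unique molecular identifiers, 1 per captured RNA molecule), and after filtering 16698, 18583, 4403 and 3418 cells remained in MMPlow 1, MMPlow 2, MMPhigh 1 and MMPhigh 2, with a median of 23668.5 UMIs per cell in MMPhigh 2 and 3145 to 3685 in the others. Between 7 and 87 retained barcodes were shared by any pair of libraries. Clusters built without the 10 genes were named from marker lists, and a class named this way carries the ending "-like". Endothelial-like cells numbered 7650 and 8710 in the MMPlow libraries and only 17 and 14 in the MMPhigh libraries, and by their markers most cells of the MMPhigh libraries were blood, neural or mesenchymal cells or unnamed. Clusters without a name held 2174 and 2769 cells in the MMPlow libraries and 2375 and 561 in the MMPhigh libraries. Doublet calling did not work in MMPlow 1 (2 calls) and MMPhigh 1 (0 calls).

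Over all retained cells, every one of the 10 genes was far lower in MMPhigh than in MMPlow. Levels are given as CPM, counts per 1000000, the UMIs of a gene per 1000000 UMIs summed over the cells of a library. Pecam1 was at 275 and 261 CPM in MMPlow 1 and 2 and 24.9 and 22.0 CPM in MMPhigh 1 and 2. Icam2, which fell least, was at 97.4 and 81.8 CPM in MMPlow 1 and 2 and 13.7 and 11.502 CPM in MMPhigh 1 and 2. Emcn, which fell most, was at 551 and 585 CPM in MMPlow 1 and 2 and 5.95 and 3.95 CPM in MMPhigh 1 and 2. In each of the 10 genes both MMPhigh libraries lay below both MMPlow libraries, as they did for 40.8% of all genes tested. By edgeR's quasi-likelihood test, the log2 fold of MMPhigh over MMPlow was -3.48 (SE 0.110, adjusted p = 1.8e-07) for Pecam1, -2.80 (SE 0.128, adjusted p = 1.1e-06) for Icam2 and -6.85 (SE 0.226, adjusted p = 7.6e-07) for Emcn. All 10 were called lower at an adjusted p under 0.05, where 26.5% of the 20517 genes tested were called lower and 53.7% were called in either direction. The median log2 fold was -4.78 over the 10 genes and 0.01 over all genes. Endothelial-like cells were 45.8 and 46.9% of the MMPlow cells and 0.386 and 0.410% of the MMPhigh cells, and in these sums fewer cells of a type and less RNA per cell cannot be told apart.

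In endothelial-like cells all 10 genes were abundant in each of the 4 libraries. Of the adherens junction genes, Cdh5 was at 452 and 429.9 CPM in MMPlow 1 and 2 and 476 and 683 CPM in MMPhigh 1 and 2. Pecam1 was at 455 and 465 CPM in MMPlow 1 and 2 and 488 and 568 CPM in MMPhigh 1 and 2. Esam, an adhesion protein of endothelial and platelet contacts, was at 169.8 and 182 CPM in MMPlow 1 and 2 and 209.9 and 257 CPM in MMPhigh 1 and 2. These levels differed by less than 2 times between any pair of libraries, although the MMPhigh values rest on 17 and 14 cells. Of the remaining junction genes, Cldn5 was at 321 and 292 CPM in MMPlow 1 and 2 and 614 and 677 CPM in MMPhigh 1 and 2, with both MMPhigh libraries above both MMPlow libraries. Icam2, which encodes a ligand for leukocyte integrins, was at 149 and 132 CPM in MMPlow 1 and 2 and 165 and 251 CPM in MMPhigh 1 and 2.

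The surface and receptor genes were likewise present in the endothelial-like cells of all 4 libraries. Emcn was at 986 and 1134 CPM in MMPlow 1 and 2 and 618 and 859.9 CPM in MMPhigh 1 and 2, and it was the 1 gene of the 10 with both MMPhigh libraries below both MMPlow libraries there. Of the 15022 genes tested in this class, 37.1% had that order. Plvap was at 344 and 365 CPM in MMPlow 1 and 2 and 291 and 349 CPM in MMPhigh 1 and 2. Eng was at 251 and 244 CPM in MMPlow 1 and 2 and 279 and 349 CPM in MMPhigh 1 and 2. Ranges of the 2 groups overlapped for Plvap and Ramp2. Ramp2 was at 469 and 542 CPM in MMPlow 1 and 2 and 541 and 639.9 CPM in MMPhigh 1 and 2. Egfl7, the secreted factor, was at 639.6 and 625 CPM in MMPlow 1 and 2 and 646 and 763 CPM in MMPhigh 1 and 2. After each cell was thinned to 2000 UMIs, 92.1 and 93.1% of the endothelial-like cells of MMPlow 1 and 2 carried at least 3 of the 10 genes, against 20.2 and 12.8% of the neural or neural crest-like and 26.2 and 18.8% of the megakaryocyte-like cells.

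**Figure D1:**
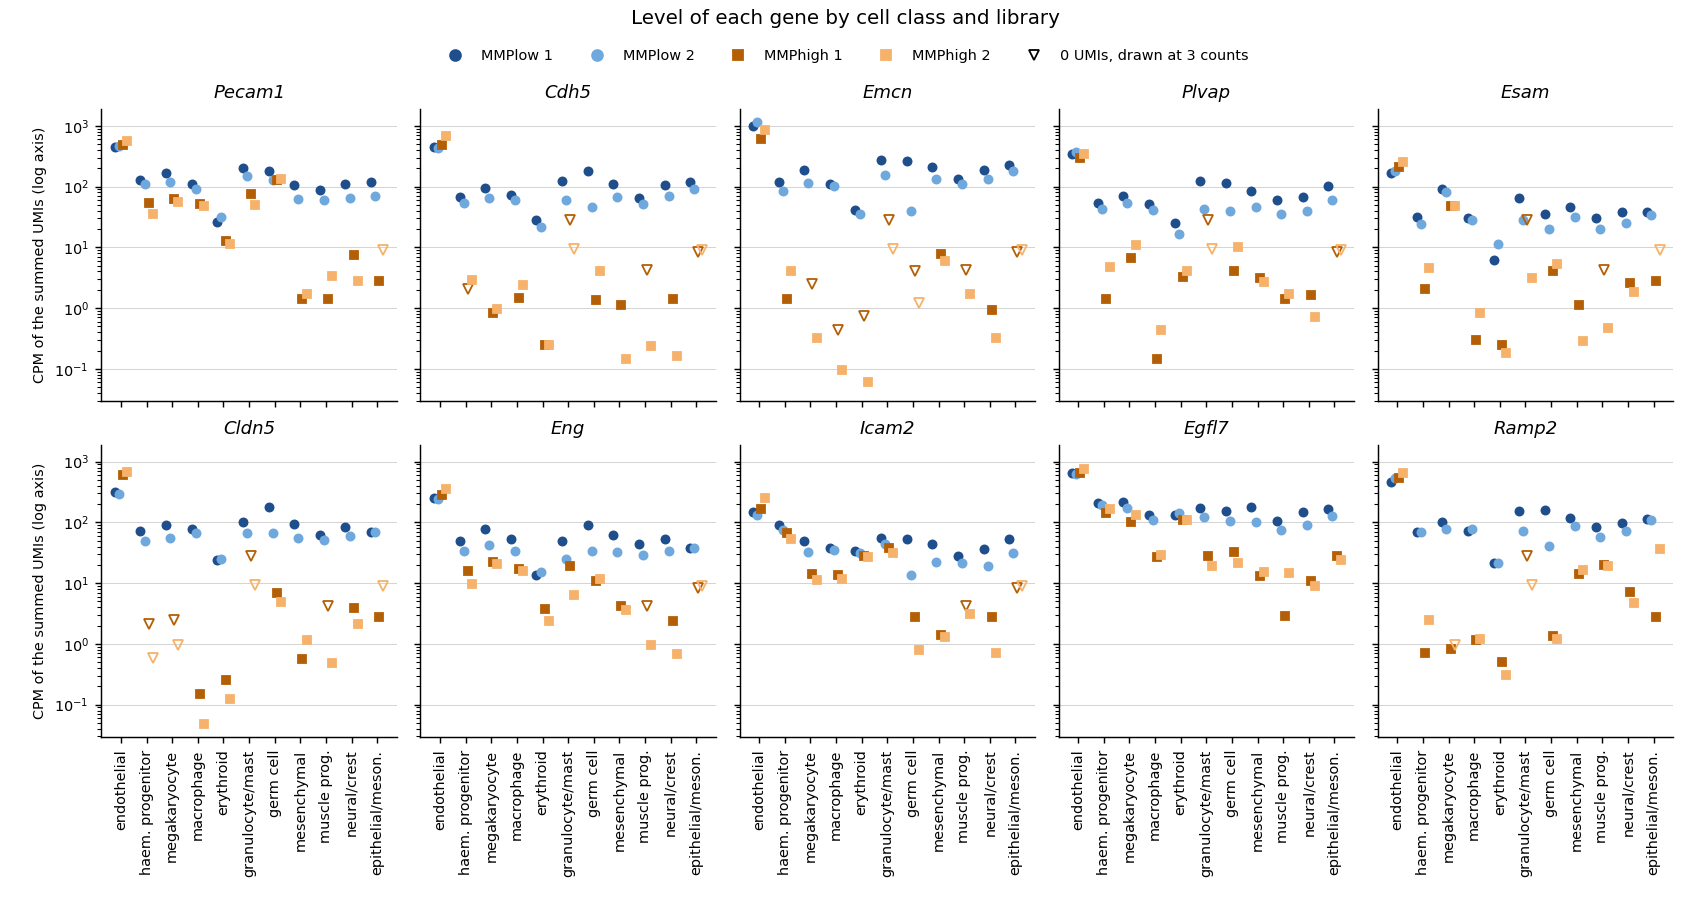
Level of each of the 10 genes (CPM of the summed UMIs, log axis) in 11 cell classes, with 1 point per library (circles MMPlow, squares MMPhigh, open triangles for 0 UMIs drawn at 3 counts). All 4 libraries sit together at the top in endothelial-like cells, while elsewhere the MMPhigh points fall away for Cdh5, Emcn and Cldn5 and stay near the MMPlow points for Pecam1 in germ cell-like cells and for Egfl7 and Icam2 in erythroid-like cells.

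Ranked over 11 classes in the MMPlow libraries, endothelial-like cells stood first for each of the 10 genes, with both libraries above every other class. The class below them was set apart from the next by both libraries in only 2 genes. For Esam this was the megakaryocyte-like class, and for Icam2 the haematopoietic progenitor-like class. For the other 8 genes the classes in the second place and in the next one overlapped. Erythroid-like cells were lowest, apart from the class above, for Pecam1, Cdh5, Emcn, Plvap, Esam, Cldn5, Eng and Ramp2, but not for Icam2 and Egfl7. Their median depth was the highest of the 11 classes, at 11195 and 13706 UMIs per cell in MMPlow 1 and 2. The part of this depth in their low levels, and in their low reference level given below, was not tested.

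No class of the MMPlow libraries was free of these transcripts, which sets how a shared gene can be read. Cells named neural or neural crest-like, a type not known for Cdh5, still carried it at 107 and 70.1 CPM in MMPlow 1 and 2, against 1.43 and 0.160 CPM in MMPhigh 1 and 2. To put a number on endothelial RNA in a class, 7 other endothelial genes (Ecscr, Mmrn2, Sox7, Sox18, Bcl6b, Rasip1 and Clec14a) were read as a reference, each as a percent of its own endothelial-like level in the same library. All 7 are among the 12 endothelial markers that named the clusters and, unlike the 10 genes, were not barred from the clustering. The reference thus helped to define the endothelial-like class, and the effect of this on its percents was not tested. The summed level of the 7 reference genes in neural or neural crest-like cells was 24.9 and 17.5% of the endothelial-like level in the MMPlow libraries and 0.750 and 0.242% in the MMPhigh libraries. In the other classes of MMPlow it ran from 15.2 to 39.3%, except 6.66 and 6.67% in erythroid-like cells, and in MMPhigh it was at most 1.21%. A gene was counted as shared with a class if its percent was above 3 times the median and above the highest of the reference genes in both MMPlow libraries, with at least 10 UMIs in each. The same rule read in the MMPhigh libraries was added after the data were seen. The part of this endothelial RNA in the MMPlow levels of blood classes was not tested.

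Read in MMPlow, 1 gene was shared with haematopoietic progenitor-like cells (Icam2), 2 with erythroid-like cells (Icam2 and Egfl7) and 0 with each of the other 8 classes, megakaryocyte-like and macrophage-like cells included. Read in MMPhigh, 5 were shared with megakaryocyte-like cells (Pecam1, Esam, Eng, Icam2 and Egfl7), and 4 each with progenitor-like and macrophage-like cells (Pecam1, Eng, Icam2 and Egfl7). Erythroid-like cells of MMPhigh shared 5 (Pecam1, Plvap, Eng, Icam2 and Egfl7), germ cell-like cells 2 (Pecam1 and Egfl7) and muscle progenitor-like cells 1 (Ramp2). Cdh5, Emcn and Cldn5 met the rule in no class in either reading. These counts describe 2 libraries each. Every MMPhigh percent divides by an endothelial-like level from only 17 and 14 cells. That is under the minimum of 20 cells asked of the other classes. In MMPhigh the reference median was often 0, so the highest reference gene or the minimum of 10 UMIs decided there, the latter for Plvap in the megakaryocyte-like cells of MMPhigh 1, for example.

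The same rule was read for all genes that, like the 10, were higher in the endothelial-like sums of MMPlow than in any sum of another class. In MMPlow it was met by 12.1% of 810 such genes in progenitor-like, 14.9% in erythroid-like, 4.57% in megakaryocyte-like and 15.7% in macrophage-like cells. In MMPhigh it was met by 48.8% of 664 in megakaryocyte-like, 42.9% in progenitor-like, 60.7% in macrophage-like, 44.4% in erythroid-like, 35.7% in germ cell-like and 47% in muscle progenitor-like cells. It was also met by 70.0% of 664 in mesenchymal-like and 74.1% in neural or neural crest-like cells of MMPhigh, where 0 of the 10 met it. The numbers of the 10 genes that met the rule thus lay near or below these shares. They lay far below in the mesenchymal-like, neural or neural crest-like and muscle progenitor-like cells of MMPhigh. The counts of shared genes therefore show no sharing particular to the 10, and the lower counts were not tested. This background was computed after the data were seen.

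With 5 times the median in place of 3, no gene of the 10 was shared with any class in MMPlow.

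**Figure D2:**
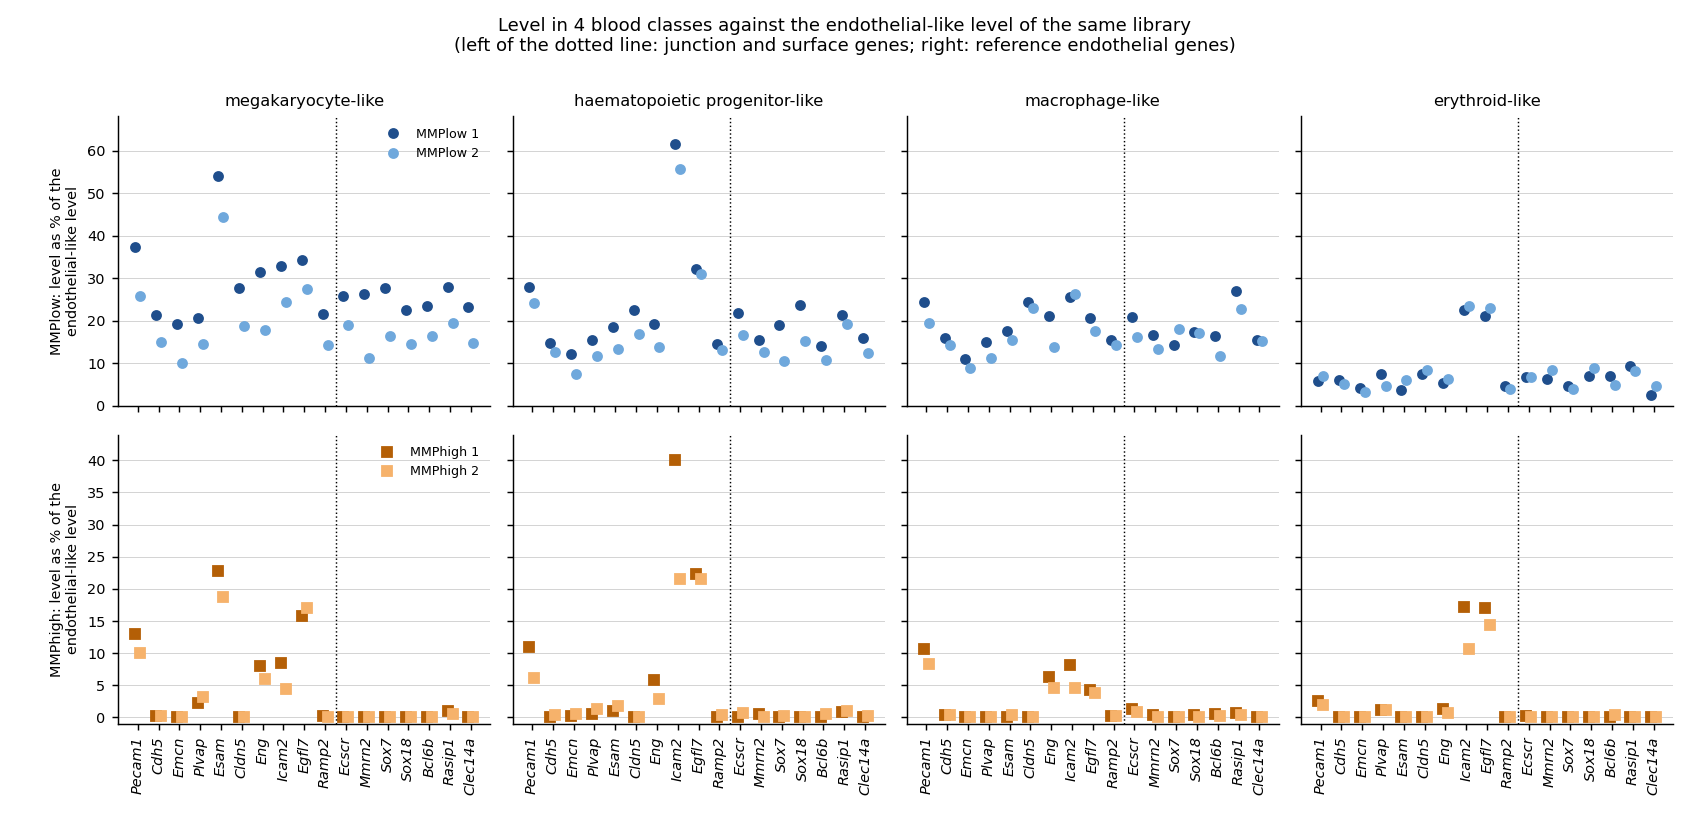
Level of each gene in 4 blood classes as a percent of its endothelial-like level in the same library (linear axes, MMPlow above, MMPhigh below, with different ranges), for the 10 genes left of the dotted line and the 7 reference endothelial genes right of it. Esam in megakaryocyte-like cells (54.0 and 44.3% in MMPlow) and Icam2 in progenitor-like cells (61.6 and 55.7%) stand above the reference genes in both groups. Cdh5 and Cldn5 lie close to the range of the reference genes in MMPlow, and Emcn lies below it in megakaryocyte-like, progenitor-like and macrophage-like cells.

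The 3 genes nearest to confinement in endothelium were Cdh5, Emcn and Cldn5. In megakaryocyte-like cells Cdh5 was at 96.2 and 64.7 CPM in MMPlow 1 and 2 and 0.825 and 0.977 CPM in MMPhigh 1 and 2, and the MMPhigh values were 0.173 and 0.143% of the endothelial-like level. In macrophage-like cells Emcn was at 108 and 100.3 CPM in MMPlow 1 and 2 and 0 and 0.0969 CPM in MMPhigh 1 and 2. Cldn5 was at 72.5 and 49.5 CPM in the progenitor-like cells of MMPlow 1 and 2 and had 0 UMIs in those of both MMPhigh libraries, where 3 counts would be 2.09 and 0.576 CPM. These 3 genes were thus present in the blood classes of MMPlow, where the reference genes were, and near 0 in those of MMPhigh, where the reference genes were too. In MMPlow their percents of the endothelial-like level in macrophage-like cells were 15.96 and 14.2% (Cdh5), 10.97 and 8.85% (Emcn) and 24.5 and 23.0% (Cldn5), beside a reference median of 16.7 and 16.2%. In these cells the lowest reference gene was at 14.2 and 11.7%, above Emcn, and the highest at 26.9 and 22.8%, which Cldn5 passed in MMPlow 2.

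Plvap and Ramp2 were close to this pattern but left small levels outside endothelium in MMPhigh. Plvap was at 6.60 and 11.1 CPM in the megakaryocyte-like cells of MMPhigh 1 and 2, which was 2.27 and 3.18% of the endothelial-like level against at most 0.997 and 0.560% for any reference gene. It was at 0.148 and 0.436 CPM in macrophage-like cells of the same libraries. Ramp2 was at 0.825 and 0 CPM in megakaryocyte-like cells of MMPhigh, but at 20.01 and 19.1 CPM in muscle progenitor-like and 14.2 and 16.6 CPM in mesenchymal-like cells, where it was the highest of the 10 genes in both libraries against its own endothelial-like level. Emcn was at 7.67 and 5.88 CPM in mesenchymal-like cells of MMPhigh, 1.24 and 0.684% of its endothelial-like level, with a highest reference gene of 1.89 and 1.55%.

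Megakaryocyte-like cells, which carry Pf4, Itga2b and Itgb3, shared Esam most clearly. Esam was at 91.6 and 80.6 CPM in MMPlow 1 and 2 and 47.8 and 48.2 CPM in MMPhigh 1 and 2, so it lay lower in MMPhigh but stayed well above 0. As a share of the endothelial-like level this was 54.0 and 44.3% in MMPlow, where the reference median was 25.8 and 16.3% and the highest reference gene 27.8 and 19.5%, and 22.8 and 18.7% in MMPhigh. In MMPlow this was 2.09 and 2.72 times the reference median, under the factor of 3 that the rule asks for. With finer clusters (resolution 2) the mean over the MMPhigh libraries was 31.1 CPM in place of 48.0 CPM. Among cells thinned to 2000 UMIs, 15.5 and 14.6% of megakaryocyte-like cells of MMPlow 1 and 2 and 13.5 and 10.4% of those of MMPhigh 1 and 2 had an Esam UMI. In neural or neural crest-like cells the shares were 7.66 and 5.13% and 0.334 and 0.676%. Unthinned, the megakaryocyte-like shares were 25.7 and 28.6% and 25.6 and 50%, at median depths of 3013 and 3832 and 3452 and 32995 UMIs per cell, against 3781 and 4349 and 4902 and 19855 in the neural or neural crest-like cells.

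Pecam1 was also present in megakaryocyte-like cells of both groups, at 169 and 119 CPM in MMPlow 1 and 2 and 63.5 and 56.6 CPM in MMPhigh 1 and 2. In MMPhigh this was 13.004 and 9.96% of the endothelial-like level. Egfl7 was at 218 and 171 CPM in MMPlow 1 and 2 and 101 and 130.2 CPM in MMPhigh 1 and 2 there, 15.7 and 17.1% of the endothelial-like level in MMPhigh. Eng was at 79.1 and 43.2 CPM in MMPlow 1 and 2 and 22.3 and 20.8 CPM in MMPhigh 1 and 2, and Icam2 at 49.1 and 32.3 CPM in MMPlow 1 and 2 and 14.0 and 11.1 CPM in MMPhigh 1 and 2. Their MMPhigh values were 7.996 and 5.98% and 8.47 and 4.40% of the endothelial-like level. When the reference median was taken off the MMPlow values, 47.8 and 50.9 CPM of Esam, 51.9 and 43.6 CPM of Pecam1 and 53.3 and 69.5 CPM of Egfl7 were left in MMPlow 1 and 2, next to 47.8 and 48.2, 63.5 and 56.6 and 101 and 130.2 CPM measured in MMPhigh. Of Eng, 14.2 and 3.46 CPM were left, less than its MMPhigh levels, and of Icam2 10.6 and 10.8 CPM. With the highest reference gene taken off instead, Eng was at 9.24 and -4.26 CPM. For Cdh5, Emcn, Plvap and Ramp2 the subtraction of the median gave values below 0 in both libraries, so it takes off too much for these 4. The subtraction was chosen after the data were seen.

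Haematopoietic progenitor-like cells, marked by Myb, Angpt1 and Ikzf2, shared Icam2. In MMPlow it was higher in their cluster led by Myb than in the one led by Angpt1 and Ikzf2, as given below. Icam2 was at 91.9 and 73.6 CPM in MMPlow 1 and 2 and 66.2 and 54.0 CPM in MMPhigh 1 and 2, and this was 61.6 and 55.7% of the endothelial-like level in MMPlow and 40.0 and 21.5% in MMPhigh. The highest reference gene was at 23.8 and 19.2% in MMPlow and 0.843 and 0.992% in MMPhigh. Thinned to 2000 UMIs, 18.3 and 14.8% of progenitor-like cells of MMPlow and 10.9 and 10.2% of those of MMPhigh had an Icam2 UMI, against 6.88 and 4.93% and 0.557 and 0.290% of neural or neural crest-like cells. Unthinned, the progenitor-like shares were 25.5 and 27.9% and 48.4 and 74.8% at median depths of 2833 and 3487 and 10215 and 41436 UMIs per cell.

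Egfl7 accompanied Icam2 in progenitor-like cells. It was at 205 and 193 CPM in MMPlow 1 and 2 and 144 and 164 CPM in MMPhigh 1 and 2. The group ranges did not overlap but lay close together. Both MMPhigh libraries lay below both MMPlow libraries for 54.5% of the 12778 genes tested in this class. Pecam1 was at 127 and 112 CPM in MMPlow 1 and 2 and 53.7 and 35.0 CPM in MMPhigh 1 and 2, and in MMPhigh this was 10.99 and 6.15% of the endothelial-like level. Eng was at 48.5 and 33.6 CPM in MMPlow 1 and 2 and 16.04 and 9.79 CPM in MMPhigh 1 and 2. With the reference median taken off, 63.7 and 57.0 CPM of Icam2, 84.4 and 114 CPM of Egfl7 and 41.6 and 53.6 CPM of Pecam1 were left in MMPlow 1 and 2, but only 1.10 and 3.03 CPM of Eng. With the highest reference gene taken off instead, Egfl7 was left at 53.2 and 73.1 CPM, Pecam1 at 19.4 and 22.8 CPM, and Eng was below 0 in both libraries. In cells with at least 5000 UMIs the rule picked Egfl7 and not Icam2 in MMPlow, and the mean MMPlow level was over 1.5 times lower for 8 of the 10 genes, all but Icam2 and Egfl7. Cdh5 was at 33.1 CPM in place of 60.1 CPM, and Pecam1 and Eng went to 70.7 CPM from 119.7 CPM and to 24.4 CPM from 41.1 CPM.

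The progenitor-like class was made of 2 clusters, of which one carried more Pecam1 and the other more Icam2. In the cluster led by Angpt1, Ikzf2, Cpa3 and Hdc, Pecam1 was at 203 and 199 CPM and Icam2 at 49.7 and 50.2 CPM in MMPlow 1 and 2. In the cluster led by Myb and Muc13, Pecam1 was at 93.2 and 68.2 CPM and Icam2 at 111 and 85.3 CPM. The MMPhigh libraries had most of their progenitor-like cells in the latter (60 of 64 and 102 of 127), where Pecam1 was at 49.9 and 29.4 CPM and Icam2 at 68.8 and 61.3 CPM. In the first cluster MMPhigh 2 held 25 cells, with Pecam1 at 64.9 CPM and Icam2 at 14.7 CPM, and MMPhigh 1 held 4. Class values of MMPlow and MMPhigh therefore weigh these clusters differently.

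Macrophage-like cells, marked by C1qa, C1qb and Cx3cr1, shared Pecam1, Eng, Icam2 and Egfl7 in the MMPhigh reading. Pecam1 was at 111 and 90.1 CPM in MMPlow 1 and 2 and 52.1 and 47.5 CPM in MMPhigh 1 and 2, and in MMPhigh this was 10.7 and 8.36% of the endothelial-like level. Eng was at 52.8 and 33.5 CPM in MMPlow 1 and 2 and 17.4 and 15.98 CPM in MMPhigh 1 and 2, 6.25 and 4.59% in MMPhigh. The highest reference gene was at 1.295 and 0.893% there. Icam2 was at 38.3 and 34.8 CPM in MMPlow 1 and 2 and 13.6 and 11.6 CPM in MMPhigh 1 and 2, which in MMPhigh was 8.20 and 4.60% and above the share of Eng. Egfl7 was at 133 and 109.8 CPM in MMPlow 1 and 2 and 27.1 and 29.5 CPM in MMPhigh 1 and 2, 4.20 and 3.87% in MMPhigh. Read in MMPlow, no gene met the rule, and Pecam1 was at 24.4 and 19.4% and the highest reference gene at 26.9 and 22.8%. Thinned to 2000 UMIs, 10.6 and 10.8% of the macrophage-like cells of MMPhigh had a Pecam1 UMI against 1.45 and 0.483% of neural or neural crest-like cells, and 21.0 and 17.1% against 18.3 and 12.6% in MMPlow. The unthinned macrophage-like shares were 39.6 and 54.6% in MMPhigh, with median depths of 15427 and 22945 UMIs and 28.4 and 28.6% in MMPlow at 2734 and 3115 UMIs. In cells with at least 5000 UMIs the mean MMPlow level was over 1.5 times lower for 7 of the 10 genes, with Cldn5 at 36.7 CPM in place of 72.9 CPM and Eng at 28.7 CPM in place of 43.1 CPM. The class joined a cluster led by C1q genes, which held 410 and 809 of the macrophage-like cells of MMPhigh, and one led by F13a1 and Mrc1, which held most of those of MMPlow.

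Erythroid-like cells shared Icam2 and Egfl7 in both readings. Icam2 was at 33.5 and 30.9 CPM in MMPlow 1 and 2 and 28.3 and 26.9 CPM in MMPhigh 1 and 2 in them. The groups did not overlap but lay close together. Both MMPhigh libraries lay below both MMPlow libraries for 29.2% of the 10596 genes tested in this class. Egfl7 was at 135 and 144 CPM in MMPlow 1 and 2 and 109.6 and 109.7 CPM in MMPhigh 1 and 2. In MMPlow, Icam2 was at 22.4 and 23.4% and Egfl7 at 21.1 and 23.0% of the endothelial-like level, where the reference median was 6.74 and 6.67% and the highest reference gene 9.25 and 8.97%. Pecam1 was at 26.3 and 31.9 CPM in MMPlow 1 and 2 and 12.5 and 11.3 CPM in MMPhigh 1 and 2. Its MMPhigh values were 2.57 and 1.98% of the endothelial-like level. Plvap was at 3.26 and 4.14 CPM and Eng at 3.76 and 2.37 CPM in MMPhigh 1 and 2. These were 1.12 and 1.19% and 1.35 and 0.681% of the endothelial-like level, where the highest reference gene was at 0.157 and 0.305%. Mesenchymal-like cells of MMPhigh, which did not share them, held 3.12 and 2.73 CPM of Plvap and 4.26 and 3.59 CPM of Eng. At resolution 0.5 no class was named progenitor-like, and the erythroid-like class took in a cluster led by Slc25a21, Ermap and Klf1 with Myb, which held 1314 and 1258 cells of MMPlow. It held 1123 and 982 progenitor-like cells of the Myb and Muc13 cluster of MMPlow 1 and 2. It also held all 60 and 102 cells of that cluster in MMPhigh 1 and 2. The other progenitor-like cluster, led by Ifitm1, Cpa3 and Slc22a3, went with 569 and 675 of its 581 and 685 cells in MMPlow into a granulocyte or mast-like cluster led by Mpo, Atp8b4 and Camp, so the progenitor-like name depends on the resolution. Egfl7 was not shared in MMPlow with the wider erythroid-like class, where the mean Icam2 level of MMPlow was 72.7 CPM in place of 32.2 CPM, and Icam2 was not shared among cells with at least 5000 UMIs.

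Mouse primordial germ cells are known to carry the Pecam1 protein. In germ cell-like cells Pecam1 was at 179 and 127 CPM in MMPlow 1 and 2 and 128 and 133 CPM in MMPhigh 1 and 2, and the group ranges overlapped. Cdh5, by contrast, was at 179 and 46.8 CPM in MMPlow 1 and 2 and 1.37 and 4.02 CPM in MMPhigh 1 and 2. The class held 30 and 30 cells in MMPlow and 76 and 48 in MMPhigh. With each cell given equal weight, Pecam1 was at 61.4 and 139 CPM in MMPhigh 1 and 2. In the neural or neural crest-like cells of MMPhigh, all 10 genes were at 10.99 and 8.98 CPM (Egfl7, the highest) or less.

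The share of a gene's UMIs that came from endothelial-like cells separated the 10 genes in MMPhigh but hardly in MMPlow. In MMPlow, endothelial-like cells held 67.7 and 71.0% of the Icam2 UMIs and 79.1 and 85.2% of the Emcn UMIs in libraries 1 and 2, the lowest and the highest of the 10. In MMPhigh, where these cells were under 1% of all, they held 62.4 and 71.0% of Emcn UMIs, 61.1 and 70.3% of Cdh5 UMIs and 47.9 and 68.9% of Cldn5 UMIs. The shares were 37.9 and 31.0% for Plvap, 29.7 and 28.6% for Ramp2, 26.4 and 23.7% for Esam and 17.6 and 15.6% for Eng. They were lowest for Pecam1 (11.8 and 8.44%), Egfl7 (7.95 and 5.25%) and Icam2 (7.27 and 7.13%). Macrophage-like cells held 34.5 and 41.6% of the Pecam1 UMIs and 30.03 and 42.3% of the Eng UMIs of MMPhigh, and megakaryocyte-like cells held 29.4 and 39.1% of the Esam UMIs. Erythroid-like cells held 21.7 and 35.5% of the Egfl7 UMIs and 20.04 and 35.7% of the Icam2 UMIs.

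Within endothelium the 10 genes had different high points. The endothelial-like class of MMPlow was made of 7 clusters, described here without a test. Pecam1 was highest in the cluster with Gja4 (354 and 360.2 CPM), Gja5 and Dll4, genes of arterial endothelium, at 639 and 693 CPM, and lowest at 309.6 and 335 CPM in the cluster led by Stab2 and Lyve1 (259 and 246 CPM), genes known from sinusoidal and lymphatic endothelium, a ratio of means of 2.07. Cdh5 was highest in the same arterial cluster, at 585 and 571 CPM, and both genes were apart from every other cluster in both libraries. Icam2 and Eng were highest in the Stab2 and Lyve1 cluster, at 224 and 209 CPM and 309 and 298 CPM, also apart from the others.

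Emcn varied most, by a ratio of 3.99. It was highest in a cluster led by Tll1, Adgrg6 and Flrt2, at 1451 and 1815 CPM, though its range overlapped that of the second cluster, and was at 638 and 713 CPM in the arterial cluster and at 395 and 423 CPM in the Stab2 and Lyve1 cluster. Nr2f2, a gene of venous endothelium, was at 225 and 262 CPM in the Tll1 and Adgrg6 cluster, 215 and 230.2 CPM in the Stab2 and Lyve1 cluster and 37.9 and 37.9 CPM in the arterial cluster. Ramp2 (2.31) and Plvap (1.74) were also highest in the Tll1 and Adgrg6 cluster, without being apart from the second. Cldn5 and Esam were highest in a cluster led by Apcdd1, Lef1 and Foxq1, at 415 and 374 CPM and 197 and 209.6 CPM, with ratios of 2.01 and 1.51, and neither was apart from the second cluster. Egfl7 was the most even, with a ratio of 1.26. The cluster led by Gng11 and S100a16 had 4 of the 10 genes (Plvap, Ramp2, Cldn5 and Cdh5) among its leading genes and the lowest median share of mitochondrial UMIs of the 7 in each MMPlow library (2.80 and 3.46%), and the part of RNA quality in its levels was not tested.

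**Figure D3:**
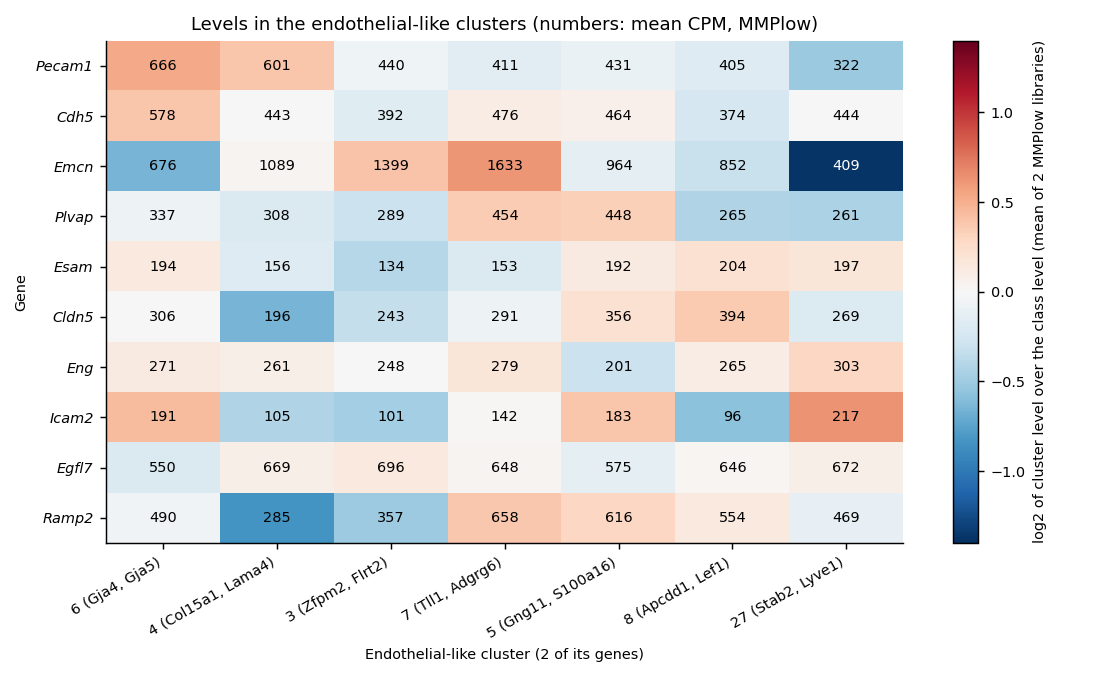
Levels of the 10 genes in the 7 endothelial-like clusters of MMPlow, where each cell prints the mean CPM of 2 libraries and the colour gives log2 of the cluster level over the class level. Pecam1 and Cdh5 are highest in the Gja4 and Gja5 cluster, Emcn is lowest in the Stab2 and Lyve1 cluster, and Egfl7 is nearly even.

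MMPhigh was also compared with MMPlow within the 10 classes for which each library held at least 10 cells. In endothelial-like cells, Cldn5 rose, with a log2 fold of 1.04 (SE 0.160, adjusted p = 0.00181) by edgeR, and none of the other 9 passed. This is 1 of 10 called where 1.48% of the 15022 genes tested were called. Both MMPhigh libraries lay above both MMPlow libraries for 7 of the 10, as for 16.4% of all genes tested there. The log2 folds of the others ran from -0.55 (Emcn, SE 0.196) to 0.57 (Icam2, SE 0.189), with a median over the 10 of 0.26 and over all genes of -0.16. The cells spread differently over the 7 clusters: the one led by Gng11 and S100a16 held 8 of 17 cells in MMPhigh 1 and 2 of 14 in MMPhigh 2, against 1984 of 7650 and 2137 of 8710 in MMPlow. The Cldn5 levels of MMPhigh given above lay above those of each of the 7 clusters in MMPlow, and the part of the cluster make-up in the fold was not tested. The Cldn5 call was lost without MMPlow 1 (edgeR adjusted p = 0.104) or MMPlow 2 (0.200). Without MMPhigh 1, Cdh5 and Icam2 were called higher as well (0.60 and 0.81), and without MMPhigh 2, Emcn was called lower (-0.81).

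In classes other than endothelium, a gene with 0 UMIs in both MMPhigh sums passed the filter on low counts only through MMPlow, so its call is not counted. Genes with a few UMIs there also had to be high in MMPlow to be tested. Only tested genes are counted next, which were all 10 except in germ cell-like cells, where 8 were tested. Those under 10 UMIs in both MMPhigh sums numbered 4 in megakaryocyte-like, 1 in progenitor-like, 3 in macrophage-like and 5 in erythroid-like cells. They numbered 2 in germ cell-like, 4 in mesenchymal-like and 6 in muscle progenitor-like cells. In neural or neural crest-like cells there were 0, and in epithelial or mesonephric-like cells 8. The counts of calls are therefore descriptions.

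In megakaryocyte-like cells 8 of the 9 genes with UMIs in MMPhigh were called lower, where 6.5% of genes were called lower. Of these 8, 5 had at least 10 UMIs in a MMPhigh sum. The falls had very different sizes. Esam fell least among those called, with a log2 fold of -0.68 (SE 0.166, adjusted p = 0.0293) by edgeR, followed by Pecam1 at -1.11 (SE 0.188, adjusted p = 0.00638). Eng was at -1.34, Icam2 at -1.57 and Plvap at -2.52. Cdh5 was at -6.20, Ramp2 at -8.20 and Emcn at -8.97. These 3 folds rest on 1 and 3, 1 and 0, and 0 and 1 UMIs in MMPhigh 1 and 2, so their sizes are uncertain. Cldn5, with 0 UMIs in MMPhigh, was at least 22.1-fold lower. The log2 fold of Egfl7 was -0.57 (SE 0.180, adjusted p = 0.0710), and it did not pass, while it did with no filter on low genes (edgeR adjusted p = 0.0404) and at resolution 2 (0.0498). Of the 7 reference genes, 5 had 0 UMIs in both MMPhigh sums of these cells. The other 2 were called lower, each with under 10 UMIs in both sums. The Esam call was lost with DESeq2 (adjusted p = 0.155), without any 1 of the 4 libraries (edgeR adjusted p = 0.0518 to 0.160) and with coarser clusters (0.0641). Without MMPlow 1, Eng (0.118) and Icam2 (0.0819) did not pass either.

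In progenitor-like cells 7 of the 9 genes with UMIs in MMPhigh were called lower, where 17.4% of genes were called lower. The exceptions were Egfl7, with a log2 fold of -0.07 (SE 0.186, adjusted p = 0.805), and Icam2, with -0.19 (SE 0.180, adjusted p = 0.433), both by edgeR. Pecam1 fell by 1.22 on the log2 scale (SE 0.196, edgeR adjusted p = 0.000138) and Eng by 1.51, while Esam was at -2.50 and Cldn5, with 0 UMIs in MMPhigh, at least 23.6-fold lower. In cells with at least 5000 UMIs the Eng call was lost (edgeR adjusted p = 0.142).

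In macrophage-like cells all 10 were called lower, beside 21.6% of genes called lower, and 7 of these had at least 10 UMIs in a MMPhigh sum. The cluster led by C1q genes held 410 and 809 macrophage-like cells of MMPhigh 1 and 2 and 288 and 435 of MMPlow 1 and 2. The one led by F13a1 and Mrc1 held 14 and 8 and 1029 and 1113, and the part of this make-up in the folds was not tested. Pecam1 fell least, at -0.75 (SE 0.113, adjusted p = 0.000131) by edgeR, then Eng (-1.09), Icam2 (-1.30) and Egfl7 (-1.81). The fold of Emcn (-9.99) rests on 0 and 2 UMIs in MMPhigh 1 and 2, so its size is uncertain. In erythroid-like cells 8 of 10 were called lower, beside 5.5% of genes, and 3 of these 8 had at least 10 UMIs in a MMPhigh sum. Not called by edgeR were Icam2, at -0.21 (SE 0.140, adjusted p = 0.402), and Egfl7, at -0.33 (SE 0.100, adjusted p = 0.0618). Without MMPhigh 1, Egfl7 was called lower too (edgeR adjusted p = 0.0355).

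In germ cell-like cells 8 of the 10 genes were tested and 7 of those had UMIs in MMPhigh, of which 6 were called lower, beside 3.06% of genes, and the exception was Pecam1, at -0.05 (SE 0.279, adjusted p = 0.944) by edgeR. That count went down to 2 without MMPlow 1, to 1 without MMPhigh 1 and to 3 without MMPhigh 2. Of the 6 calls in germ cell-like cells, 5 had at least 10 UMIs in a MMPhigh sum. Emcn had 0 UMIs in both MMPhigh sums and was at least 9.76-fold lower. All 10 were called lower in mesenchymal-like (beside 10.9% of genes called lower), muscle progenitor-like (1.56%) and neural or neural crest-like cells (11.9%). Of these calls only 6, 4 and 10 in the same order had at least 10 UMIs in a MMPhigh sum. In epithelial or mesonephric-like cells (beside 6.68%), Pecam1, Esam, Cldn5, Egfl7 and Ramp2 were called lower. The other 5 genes had 0 UMIs in both MMPhigh sums there. Of the 5 called, only Egfl7 and Ramp2 had at least 10 UMIs in a MMPhigh sum. The muscle progenitor-like and neural or neural crest-like counts went down to 6 without MMPlow 1 or MMPlow 2. The reference genes with UMIs in MMPhigh were called lower in each class of this paragraph that had any, 7 of 7 in mesenchymal-like and neural or neural crest-like cells and 3 of 3 in muscle progenitor-like and epithelial or mesonephric-like cells. Those with at least 10 UMIs in a MMPhigh sum numbered 3 in mesenchymal-like and 4 in neural or neural crest-like cells. They numbered 1 in muscle progenitor-like and 0 in epithelial or mesonephric-like cells. The summed reference level in MMPlow and MMPhigh moved with every fall outside endothelium, and its part in the result was not tested.

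**Figure D4:**
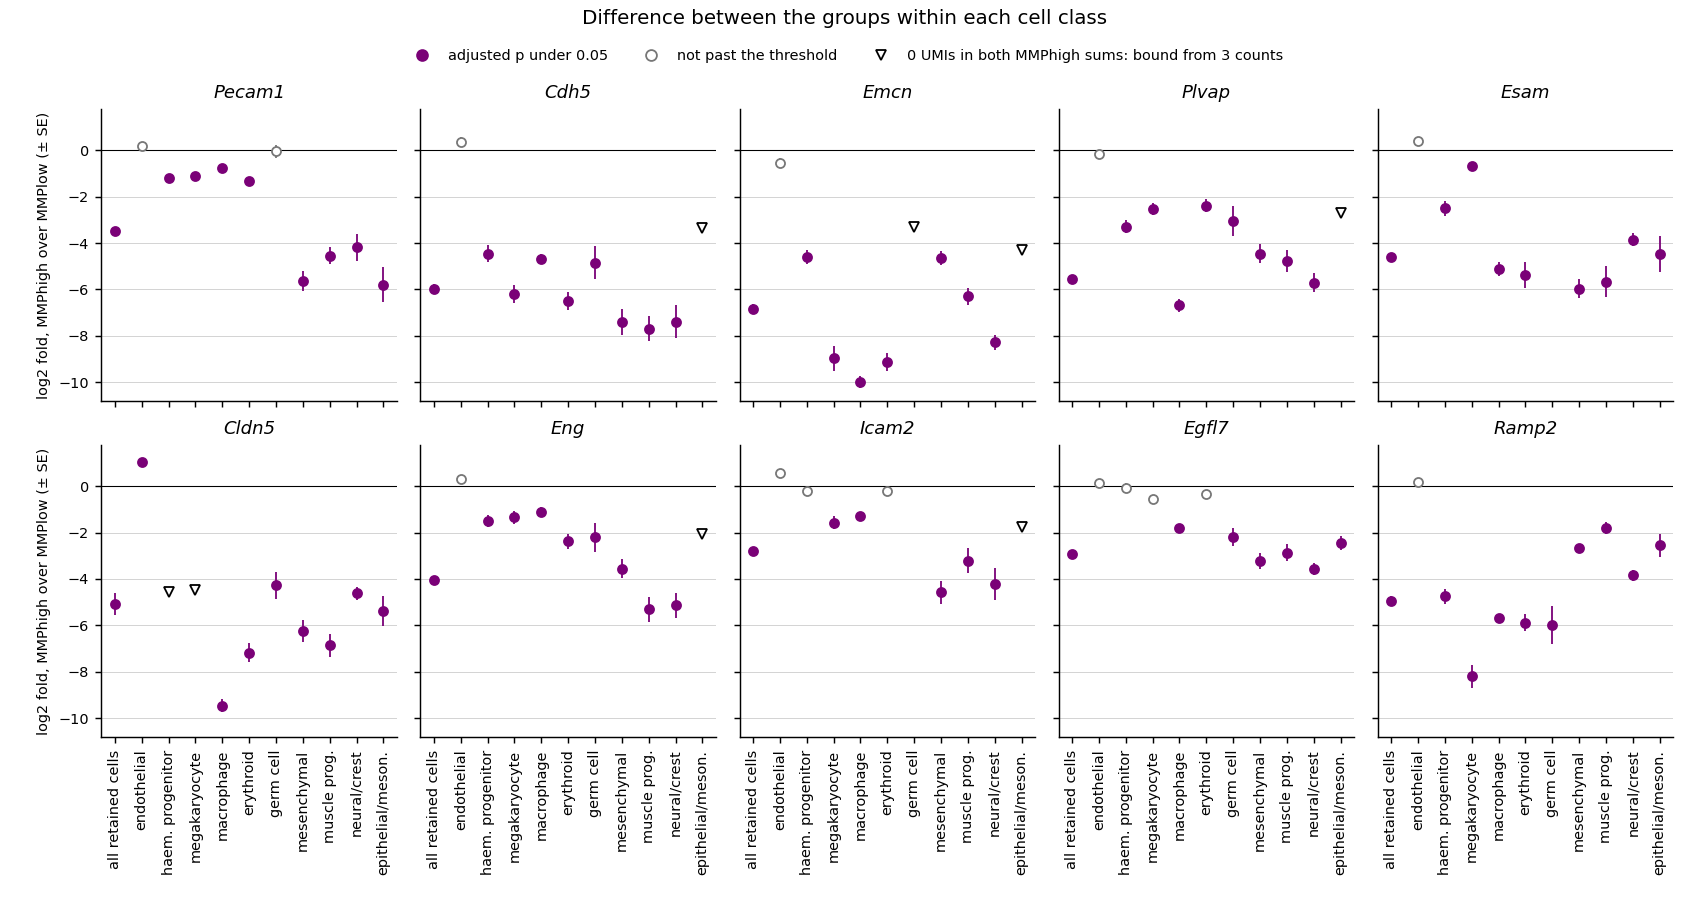
Log2 fold of MMPhigh over MMPlow (points with SE bars, edgeR) for each of the 10 genes in all retained cells and in 10 classes, filled where the adjusted p was under 0.05, with triangles for lower bounds of the fall where both MMPhigh sums had 0 UMIs. Endothelial-like points lie between -0.55 and 1.04, and Pecam1, Eng, Icam2 and Egfl7 lie nearest to 0 in progenitor-like and macrophage-like cells, while Esam is near 0 in megakaryocyte-like but not in macrophage-like (-5.12) or erythroid-like cells (-5.38).

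Other genes of the same structures were read from 4 lists, by the same edgeR test over all genes. In all retained cells, where 26.5% of genes were called lower and 27.2% higher, 7 of 8 adherens junction genes were called lower, Ptprb among them at -6.19 (SE 0.114, adjusted p = 1.3e-07). Of 9 tight junction genes, 7 were lower and 2 higher, and Cgnl1, a junction-linked actin regulator, was at -2.93 (SE 0.0984, adjusted p = 2.2e-07). Of 16 endothelial surface genes 15 were lower, among them the VEGF receptor gene Kdr at -5.42 (SE 0.143, adjusted p = 1.3e-07). Of 10 tested partners of Eng and Ramp2, 6 were lower and 3 higher, and Calcrl, which encodes the receptor that Ramp2 accompanies, was at -3.85 (SE 0.106, adjusted p = 1.3e-07). In endothelial-like cells, where 1.48% of genes were called, 1 gene of the 4 lists passed, the tight junction gene F11r, which rose by 0.93 (SE 0.185, adjusted p = 0.0139). Genes with 0 UMIs in both MMPhigh sums of a class are left out of the counts that follow. Those with under 10 UMIs in both sums also had to be high in MMPlow to be tested. Brackets therefore give how many of the lower calls had at least 10 UMIs in a MMPhigh sum, and the counts are descriptions. In megakaryocyte-like cells 4 of 8 (3) adherens junction, 4 of 8 (3) tight junction, 7 of 10 (3) surface and 4 of 6 (4) partner genes were called lower, beside 6.5% of genes called lower. In progenitor-like cells the counts were 4 of 8 (2), 5 of 9 (4), 12 of 13 (7) and 5 of 7 (4) in the same order, beside 17.4%. In erythroid-like cells they were 4 of 8 (3), 3 of 7 (3), 7 of 9 (1) and 3 of 7 (2), beside 5.5%. In germ cell-like cells they were 1 of 7 (0), 0 of 5 (0), 2 of 3 (1) and 2 of 5 (1), beside 3.06%. In muscle progenitor-like cells they were 1 of 8 (0), 0 of 8 (0), 8 of 8 (3) and 1 of 7 (1), beside 1.56%. In these 5 classes 0 genes of the 4 lists were called higher. Surface genes were also called lower in 12 of 13 (5) cases in mesenchymal-like cells, beside 10.9% of genes. In neural or neural crest-like cells it was 14 of 15 (12), beside 11.9%. In epithelial or mesonephric-like cells it was 4 of 5 (0), beside 6.68%, and 0 surface genes were higher in these classes. Other counts went in both directions. In epithelial or mesonephric-like cells 0 of 7 (0) tight junction genes were lower and 2 higher, where 7.1% of genes were called higher, and of 5 partner genes 1 (1) was lower and 1 higher. Mesenchymal-like cells had 4 of 8 (4) tight junction genes lower and 1 higher. Neural or neural crest-like cells had 5 of 8 (5) lower and 1 higher, with 3 of 8 (3) partner genes lower and 1 higher. The share of all genes called higher is not given here for these classes, so their higher calls stand without a comparison. In macrophage-like cells 9 of 12 (6) surface genes were lower and 2 higher, and 6 of 8 (6) tight junction genes were lower and 1 higher. Of 8 partner genes there 2 (1) were lower and 3 higher, where 21.6% of genes were called lower and 21.8% higher.

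Across the 38 sums of a class and a library with at least 20 cells, which share libraries and so depth and background, the 10 genes resembled each other to different degrees. Pearson's r of log2(CPM + 1) was 0.97 for Cdh5 and Cldn5, 0.96 for Cdh5 and Emcn, 0.96 for Cdh5 and Plvap, 0.95 for Emcn and Ramp2, 0.95 for Icam2 and Egfl7, and 0.91 for Pecam1 and Eng. It was lowest for Pecam1 and Ramp2 (0.47) and for Egfl7 and Ramp2 (0.48). Outside the set, the gene most like Cdh5 was Aplnr (0.99), and the most like Emcn was Ptprb (0.98). Ramp2 was most like Arhgef15 (0.98), Plvap most like She (0.97), Esam most like Myct1 (0.97), Cldn5 most like Aplnr (0.97) and Eng most like Plxnd1 (0.96). The nearest genes were Arap3 for Icam2 (0.95) and Lrrc8c for Egfl7 (0.91). Pecam1 had the loosest match, Arap2 (0.88), followed by Gimap1 and Kank3.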

How the data were processed

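Per the labels' protocols, 10x Genomics 3' v3 chemistry was used. Whole-number UMI counts per gene and barcode were deposited without normalization. Cell Ranger 7.0.1 is named per the file headers, while the submitters' processing notes name Cell Ranger 2.1.1 and mm10. Barcodes with at least 2000 UMIs, 1000 genes and under 25% mitochondrial UMIs were kept. Scrublet in scanpy 1.11.5 called 2, 996, 0 and 68 doublets. Clustering of the 43102 retained cells used 2000 variable genes, with 227 genes (the 10 genes, mitochondrial, OXPHOS and ribosomal genes) left out, 30 components, 15 neighbours and Leiden resolution 1, which gave 29 clusters. Clusters were named from 11 lists of 12 markers, and the naming thresholds (mean log2 fold of 0.5, 0.25 above the next list, 3 markers with 1 leading or 6) were set after the clusters had been seen. Counts were summed per library and class and tested with edgeR 4.0.16 under R 4.3.3 (TMM, filterByExpr, robust quasi-likelihood F-test, two-sided, Benjamini-Hochberg over all genes tested, threshold 0.05). Folds are MMPhigh over MMPlow. The test was checked only on counts simulated at the depth of the whole-library sums. The smaller sums of single classes were not simulated. Alternatives were RLE size factors, DESeq2 1.42.0, no filter on low genes, a replicate block, each library left out, at least 5000 UMIs, removal of the 6% highest doublet scores, resolutions of 0.5 and 2, other factors for sharing, and cells without reference UMIs. The text names all 10 genes, the reference genes, up to 3 genes per list by adjusted p, and the nearest genes by correlation. A floor of 3 counts was used where a sum was 0. The SE of a fold is taken from the edgeR fit and includes the estimated spread between libraries. The genes and lists were chosen with earlier results of these data known. Pairing by replicate number was checked by the correlation of deviations, and only 2 pairs exist. Coordinates are from GENCODE vM21 and RefSeq, both GRCm38.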

Additional observations from a re-analysis of the deposited data

Results flagged for a closer look

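For 7 genes the order of the libraries differed between endothelial-like cells and the other classes. In endothelial-like cells both MMPhigh libraries lay above both MMPlow libraries for Cldn5 (log2 fold of 1.04), Icam2 (0.57), Esam (0.39), Cdh5 (0.37), Eng (0.32), Pecam1 (0.17) and Egfl7 (0.12). In the 10 other classes both MMPhigh libraries lay below both MMPlow libraries for each of them, except that Pecam1 did so in 9. Among all genes tested in a class, both MMPhigh libraries lay above both MMPlow libraries for 16.4% in endothelial-like cells and below them for 27.1 to 57.0% in the 9 other classes with enough cells for edgeR. Of these endothelial-like folds, only that of Cldn5 passed edgeR's test, and the difference between classes was not tested.

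Barcodes with under 1000 UMIs, which enter no comparison above, also carried the 10 genes. Their summed level was 1688 CPM in MMPlow 1, 1384 CPM in MMPlow 2, 109.9 CPM in MMPhigh 1 and 133.9 CPM in MMPhigh 2. Both MMPlow libraries thus lay above both MMPhigh libraries, as for the retained cells.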

How the results depend on the processing

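Of 955 alternative log2 folds of single genes, over all cells and in 7 classes, 895 kept their direction and their side of the threshold, 44 lost the call, 9 gained it and 7 reversed. The reversals were Ramp2 in endothelial-like cells with at least 5000 UMIs (-0.20), Icam2 in progenitor-like cells with at least 5000 UMIs (0.077), Egfl7 in progenitor-like cells without MMPhigh 1 (0.11), and Pecam1 in germ cell-like cells with no filter on low genes (0.14), with DESeq2 (0.020), with cells carrying reference UMIs removed (0.079) and without MMPlow 1 (0.22, against a lowest value of -0.21 without MMPlow 2). None of these passed in either setting, and the cause was not tested. Of 136 alternative counts of genes called, which take in genes with 0 UMIs in both MMPhigh sums, 123 stayed within 1.5 times the count they alter. The share of all genes called in each alternative is not given here, so these counts stand without a comparison. Leaving out 1 library at a time gave 0 to 3 in endothelial-like cells, 2 to 7 in germ cell-like cells, and 6 to 10 in both muscle progenitor-like and neural or neural crest-like cells. Germ cell-like cells gave 3 when cells with reference UMIs were removed and no count with DESeq2, which left 9 of the 10 genes without an adjusted p, and neural or neural crest-like cells gave 5 at resolution 0.5.

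Of 94 alternative counts of shared genes, 83 were the same. Erythroid-like cells shared 0 at a factor of 5, 1 at 5000 UMIs, 1 at resolution 0.5 and 5 in the MMPhigh reading. Progenitor-like cells shared 0 at a factor of 5 and 4 in the MMPhigh reading, and megakaryocyte-like cells shared 1 (Esam) at a factor of 2 and 5 in the MMPhigh reading. That reading also gave 4 in macrophage-like, 2 in germ cell-like and 1 in muscle progenitor-like cells. At 5000 UMIs the gene shared with progenitor-like cells was Egfl7 in place of Icam2.

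With the replicate number as a block, edgeR called 10 genes over all retained cells and 1 in endothelial-like cells. It called 10 in megakaryocyte-like cells (Egfl7 gained, edgeR adjusted p = 0.0271) and 8 in progenitor-like cells. Counts were 10 in macrophage-like, 8 in erythroid-like and 9 in muscle progenitor-like cells. Genes with 0 UMIs in both MMPhigh sums, such as Cldn5 in megakaryocyte-like and progenitor-like cells, were not left out of these counts. The share of all genes called with the block is not given here, so the counts stand without a comparison. Deviations of same-numbered libraries correlated at 0.11 over all cells, 0.24 in megakaryocyte-like and 0.14 in progenitor-like cells and at -0.03 to 0.08 in the other classes; the labels say nothing of what a number shares, so the libraries were not treated as paired. Of 460 alternative levels, 143 moved by more than 1 SD between libraries.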

Other observations

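Granulocyte or mast-like cells, led by Camp, S100a9 and Mpo, numbered 127 and 186 in the MMPlow libraries and 5 and 12 in the MMPhigh libraries, too few for a test. Pecam1 was at 200.3 and 147 CPM in MMPlow 1 and 2 and 76.0 and 50.4 CPM in MMPhigh 1 and 2 in them, and Icam2 at 54.6 and 43.3 CPM in MMPlow 1 and 2 and 38.0 and 31.5 CPM in MMPhigh 1 and 2. Cdh5, Emcn, Plvap, Cldn5 and Ramp2 had 0 UMIs in both MMPhigh sums of this class, where 3 counts would be 28.5 and 9.45 CPM, so the depth there cannot separate them from the lower levels seen in other blood classes.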
